A study of Mus musculus with 9 samples.

Results

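The heavy chain V segments are the stretches of the immunoglobulin heavy chain locus from which each B cell picks 1 to encode most of the antigen-binding part of its antibody. Every gene of the deposited log2 CPM table whose name starts with Ighv was taken. There were 89 such segments among the 12849 genes of that table and the 55536 genes counted. The count table names 185 Ighv genes, and the 96 outside the log2 table held 0.412% to 1.39% of the Ighv counts of a library, with 56 of them at 0 counts throughout. The annotation types 1 of the 89, Ighv1-2, as a pseudogene and the other 88 as V genes, and the V gene type does not state whether a segment is functional. The 89 fall into 15 families, the family being the number before the first hyphen.

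RNA was sequenced from mouse spleen B cells that the labels place before the germinal centre stage, in 4 libraries of genotype WT and 5 of genotype p52Ki, titled p52ki/ki. p52 is the DNA-binding NF-kB subunit made from Nfkb2. The sources used here do not give strain, age, sex, immunisation, the sort or how the knock-in was made. They also do not say that each library is a mouse of its own, so p-values speak only of the spread among these 9 samples, and that spread may be technical. Expression values are CPM, counts relative to library sizes scaled by the TMM method, and a share is the percentage of the summed counts of the 89 segments in the same library.

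A developing B cell joins 1 V, 1 D and 1 J segment, and the joined exon is transcribed with a constant region gene such as Ighm. In naive B cells many V segments are in use. In a germinal centre, cells whose receptor binds the antigen expand and their V exons are mutated, so a few segments can come to dominate. Ighv1-72 is the segment long known to dominate the antibody response to the hapten nitrophenyl in mice of the b heavy chain haplotype, where it pairs with the lambda light chain made from Iglv1 and Iglc1. Bulk counts per segment cannot tell many cells with 1 segment from a few cells rich in its RNA, and fewer cells of a type and less RNA per cell cannot be told apart.

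Of the 89 segments 3 were called lower in p52Ki, where 4.04% of all 12849 genes tested were called lower, and the germline sequences of 2 of these, Ighv1-72 and Ighv1-62-3, are near-identical. Printed here are the last 294 bases, lying in 1 exon, of each annotated transcript in GENCODE M21 on GRCm38, 5′ to 3′, all on the minus strand of chromosome 12. Ighv1-72 (115757984 to 115758277) is shown whole in lower case as the segment the results turn on, and Ighv1-62-3 (115460999 to 115461292), Ighv1-64 (115507545 to 115507838) and Ighv1-53 (115158403 to 115158696) are its closest relatives among the 89, with each base that differs from Ighv1-72 in capitals. Ighv14-3 (114059845 to 114060138), the remaining segment called lower, belongs to another family and is printed in lower case throughout.
Ighv1-72: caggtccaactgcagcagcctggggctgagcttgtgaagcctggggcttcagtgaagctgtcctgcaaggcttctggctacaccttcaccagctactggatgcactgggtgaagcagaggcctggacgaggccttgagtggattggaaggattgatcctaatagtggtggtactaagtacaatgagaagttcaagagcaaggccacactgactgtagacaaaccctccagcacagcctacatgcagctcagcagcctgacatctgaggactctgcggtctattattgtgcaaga
Ighv1-62-3: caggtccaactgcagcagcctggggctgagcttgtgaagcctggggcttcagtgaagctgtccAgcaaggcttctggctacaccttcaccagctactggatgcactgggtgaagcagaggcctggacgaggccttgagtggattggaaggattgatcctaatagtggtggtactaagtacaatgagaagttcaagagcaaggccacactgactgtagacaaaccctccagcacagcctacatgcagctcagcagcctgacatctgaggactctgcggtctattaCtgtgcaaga
Ighv1-64: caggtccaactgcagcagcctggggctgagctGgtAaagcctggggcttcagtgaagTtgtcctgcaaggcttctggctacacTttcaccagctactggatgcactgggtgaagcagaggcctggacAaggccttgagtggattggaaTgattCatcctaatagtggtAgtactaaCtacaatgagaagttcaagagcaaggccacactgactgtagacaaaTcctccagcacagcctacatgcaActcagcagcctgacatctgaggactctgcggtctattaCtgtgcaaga
Ighv1-53: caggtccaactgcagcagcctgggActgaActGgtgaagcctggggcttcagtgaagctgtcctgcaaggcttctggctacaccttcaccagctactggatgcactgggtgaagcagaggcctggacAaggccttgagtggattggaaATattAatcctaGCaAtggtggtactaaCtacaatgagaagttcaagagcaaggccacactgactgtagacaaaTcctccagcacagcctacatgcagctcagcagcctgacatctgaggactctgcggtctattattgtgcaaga
Ighv14-3: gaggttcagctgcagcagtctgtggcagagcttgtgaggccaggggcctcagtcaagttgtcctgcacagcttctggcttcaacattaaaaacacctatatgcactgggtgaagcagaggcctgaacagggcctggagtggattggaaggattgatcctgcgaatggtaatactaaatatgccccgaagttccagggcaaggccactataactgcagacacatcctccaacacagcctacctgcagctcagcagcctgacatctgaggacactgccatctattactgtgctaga

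Ighv1-62-3 matched Ighv1-72 at 292 of the 294 bases, with the differences T64A and T285C (Ighv1-72 base, position from the first base printed, Ighv1-62-3 base). Ighv1-64 and Ighv1-53 matched it at 282 bases each and Ighv14-3 at 238. How the authors' counting treated reads that fit more than 1 segment, or reads with somatic mutations, is not given in the sources used here, so the separate values of Ighv1-72 and Ighv1-62-3 are uncertain.

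Ighv1-72 (ENSMUSG00000096074) was the leading segment of every WT library. It took 42.7%, 37.0%, 40.6% and 38.6% of the Ighv counts in the 4 WT libraries and just 3.07%, 7.999%, 7.86%, 10.1% and 4.27% in the 5 p52Ki libraries, in replicate order, with 95% Wilson intervals of at most ± 0.890 points that cover counting error only. The lowest WT library thus lay far above the highest p52Ki library. In CPM it stood at 670.5, 608.8, 673.8 and 643.6 in WT and at 75.8, 209, 159, 242 and 82.8 in p52Ki. On average it had 649 ± 30.1 CPM in WT and 154 ± 74.0 CPM in p52Ki (SD, n = 4 and 5). This gave -2.08 ± 0.31 as log2 fold change (SE, edgeR adjusted p = 0.00351). Fitted against the summed Ighv counts in place of the library size, which compares shares, the log2 fold change was -2.58 (edgeR adjusted p = 0.000703).

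Counts are not scaled to length, and the annotated transcripts of the 89 segments run from 294 to 461 bases (Ighv1-72 has 396). Per base of transcript, Ighv1-72 remained first in all 4 WT libraries, at 35.5% to 40.1% of the length-scaled Ighv total. It ranked 10, 2, 2, 1 and 5 in p52Ki replicates 1 to 5.

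Ighv1-62-3, the near-identical relative (ENSMUSG00000096767), took 1.76%, 1.46%, 1.81% and 1.73% of Ighv counts in WT and 0.217%, 0.405%, 0.527%, 0.530% and 0.337% in p52Ki. All p52Ki libraries were below all WT libraries. Its log2 fold change was -1.59 ± 0.36 (edgeR adjusted p = 0.0191), a call that ended without WT replicate 3 (adjusted p = 0.0512). It had 4.26 ± 0.260 counts per 100 counts of Ighv1-72 in WT and 6.40 ± 1.21 in p52Ki (SD, n = 4 and 5). Of the 10 other members at least 90% identical to Ighv1-72 over these bases, 9, all but Ighv1-62-3, had log2 fold changes above 0. So had 80 of all 89 segments, so this count does not set the relatives apart. Ighv1-64 and Ighv1-53 had 0.69 ± 0.37 and 0.58 ± 0.58, short of the threshold (edgeR adjusted p = 0.325 and 0.641).

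Ighv14-3 (ENSMUSG00000095642) was second after Ighv1-72 in WT replicates 1, 3 and 4 and ranked 3 in WT replicate 2. Its share was 6.82%, 5.32%, 6.99% and 6.99% in WT and 0.723%, 1.16%, 3.03%, 1.07% and 1.18% in p52Ki, where it ranked between 8 and 37. The genotypes did not overlap, although p52Ki replicate 3 stood well above the other p52Ki libraries. Mean CPM fell from 107 ± 13.6 to 31.6 ± 17.2, or by 1.76 ± 0.33 in log2 (edgeR adjusted p = 0.00866). The calls of Ighv1-72 and Ighv14-3 were kept in each of the 9 fits that left out 1 library (adjusted p up to 0.0120 and 0.0274).

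**Figure D1:**
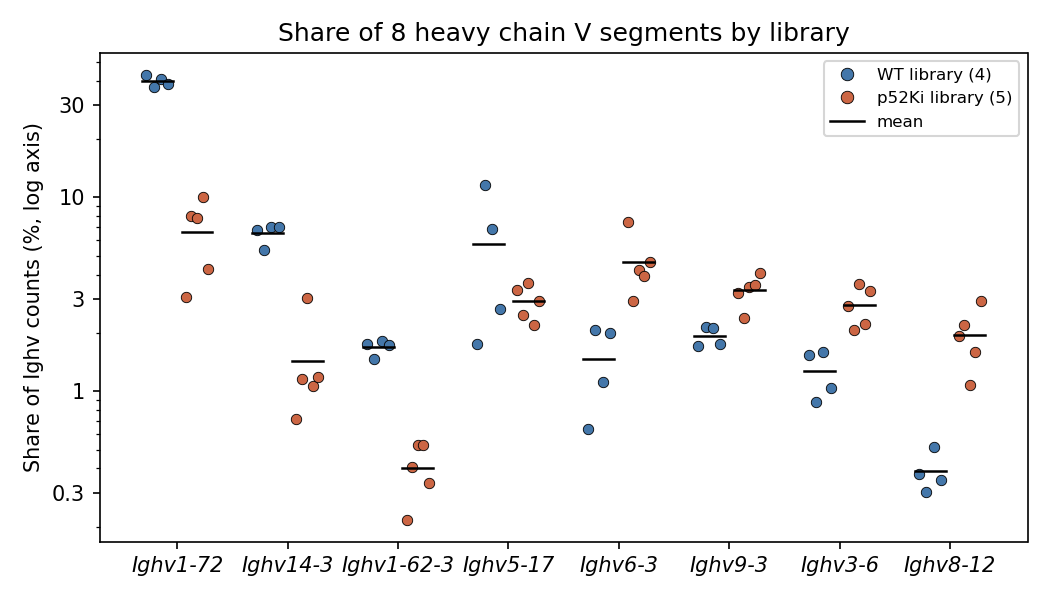
Share of Ighv counts (percent, log axis) of 8 V segments in each WT (blue) and p52Ki (orange) library, with the mean as a line. Ighv1-72, Ighv14-3 and Ighv1-62-3 sit lower in every p52Ki library than in any WT library, Ighv6-3, Ighv9-3, Ighv3-6 and Ighv8-12 sit higher, and Ighv5-17 overlaps.

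Against these 3 falls, 17 segments were called higher in p52Ki, where 4.49% of all 12849 genes tested were called higher and 4.04% lower. The genotypes did not overlap in CPM in 29 segments with p52Ki higher and 3 with p52Ki lower, where 7.3% and 6.53% of all genes separated in those directions. By share of Ighv counts, 18 segments were higher in every p52Ki library than in any WT library and 3 were lower. Fitted against the summed Ighv counts, 12 segments were called higher and 3 lower. The median log2 fold change was 1.41 over the 89 segments and 0.03 over all genes. These counts are a description, since 43 of the 89 reached the CPM asked by the filter on low counts in at least 4 p52Ki libraries but not in all 4 WT libraries, and none did the reverse. Of those 43 segments only 2, Ighv8-2 and Ighv1-66, had log2 fold changes below 0 (-1.01 and -0.17). The filter thus favoured segments that were higher in p52Ki, and the median and the counts of rises are not free of it. Of the 17 rises, 12 reached the CPM asked by the filter in all 4 WT libraries. The number of rises was 11, 10, 11 and 15 without WT replicates 1 to 4 and 9, 9, 11, 14 and 10 without p52Ki replicates 1 to 5, 7 were called in all of these fits, and DESeq2 called 35. The share of all genes called in fits other than the main one is not given here, so their counts cannot be set against it.

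Ighv8-12, of family 8, had the smallest p among the rises. Its level was 5.91, 4.98, 8.53 and 5.84 CPM in WT and 47.8, 57.3, 21.8, 38.5 and 56.3 CPM in p52Ki. Every p52Ki library was above every WT library, with a log2 fold change of 2.81 ± 0.37 (edgeR adjusted p = 0.00218). Ighv9-3, of family 9, stood at 26.9, 35.1, 35.1 and 29.3 CPM in WT and 79.1, 62.4, 70.1, 84.4 and 78.9 CPM in p52Ki. It rose by a log2 fold change of 1.25 ± 0.20 (edgeR adjusted p = 0.00462), with no overlap. Ighv3-6, at 24.3, 14.5, 26.6 and 17.3 CPM in WT and 67.8, 54.0, 72.7, 53.2 and 63.4 CPM in p52Ki, rose by 1.59 ± 0.26 (edgeR adjusted p = 0.00462), again with no overlap. All 3 kept their calls whichever library was left out, and their shares rose too when the fit used the summed Ighv counts (log2 fold changes 2.33, 0.79 and 1.13, edgeR adjusted p = 0.00155, 0.0308 and 0.0168).

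Other rises differed widely between p52Ki libraries. Ighv6-3 stood at 9.98, 34.2, 18.6 and 33.4 CPM in WT and at 185, 76.5, 85.3, 94.5 and 89.7 CPM in p52Ki, with replicate 1 well above the rest (log2 fold change 2.14 ± 0.40, edgeR adjusted p = 0.00866). Ighv1-9 stood at 13.4, 11.9, 5.55 and 11.4 CPM in WT and at 224, 123, 36.5, 31.9 and 30.4 CPM in p52Ki. Its p52Ki libraries 1 and 2 were several times the other 3, though all 5 were above WT (3.08 ± 0.66, edgeR adjusted p = 0.0155). Ighv1-39 rose by 3.10 ± 0.66 (edgeR adjusted p = 0.0158). The calls of Ighv6-3, Ighv1-9 and Ighv1-39 held without any 1 library.

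Ighv1-26 rose from 22.5 ± 11.8 to 90.1 ± 56.1 CPM (2.00 ± 0.46, edgeR adjusted p = 0.0214), a call lost without WT replicate 1, 2 or 3 (adjusted p up to 0.0598). For Ighv13-2 (3.04 ± 0.73) the call ended on leaving out, 1 at a time, replicates 1 and 3 of WT or 1 and 2 of p52Ki, at edgeR adjusted p up to 0.0620. Ighv4-1 (2.02 ± 0.49) lost its own on leaving out replicate 3 or 4 of WT or 1, 3 or 5 of p52Ki, at up to 0.0660. Ighv7-3 (2.18 ± 0.55) did so for replicate 1, 2 or 3 of WT or 1, 2 or 5 of p52Ki, at up to 0.0798. The calls of Ighv1-5 and Ighv1-62-2, with log2 fold changes of 2.39 and 2.29, ended in 7 of the 9 such fits each, kept without WT replicate 1 or p52Ki replicate 5 for Ighv1-5 and without WT replicate 3 or p52Ki replicate 4 for Ighv1-62-2. Ighv5-6, Ighv6-6 and Ighv1-61 were also called and had log2 fold changes of 2.21, 2.27 and 2.21. Ighv5-6 kept its call without any 1 library (edgeR adjusted p up to 0.0378). Ighv6-6 kept it only without WT replicate 4 or p52Ki replicate 4, and Ighv1-61 only without WT replicate 3 (edgeR adjusted p up to 0.101 and 0.102 otherwise).

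Of the 17 rises, Ighv7-4 and Ighv2-6-8, had 0 counts in all 4 WT libraries. They had 149 and 101 counts over the 5 p52Ki libraries, with 1 p52Ki library at 0 in each. Relative to a floor of 3 counts over the summed WT libraries (0.102 CPM), the pooled p52Ki level was 48.9-fold for Ighv7-4 and 33.1-fold for Ighv2-6-8. These ratios allow for counting error in WT only, not in p52Ki. Both calls ended without any 1 WT library (edgeR adjusted p up to 0.0756 and 0.0816), and both segments fell below the filter without most p52Ki libraries.

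The remaining 69 segments did not pass, 63 with a log2 fold change above 0 and 6 below, from -1.01 to 4.44. Ighv5-17, second in mean share over the 9 libraries, belonged to the 6. It took 1.76%, 11.6%, 6.86% and 2.67% in WT and 3.34%, 2.47%, 3.62%, 2.20% and 2.92% in p52Ki, so that WT replicates 2 and 3 were high and the others overlapped (log2 fold change -0.51 ± 0.45, edgeR adjusted p = 0.583). Ighv5-4, at 0.819%, 2.62%, 3.28% and 0.955% in WT and 9.45%, 2.52%, 1.92%, 4.87% and 2.88% in p52Ki, also overlapped (1.70 ± 0.58, edgeR adjusted p = 0.1001). Ighv10-3, the leading segment of family 10, was at 0.68 ± 0.33 in log2, short of the threshold (edgeR adjusted p = 0.260). Ighv2-2, which leads family 2, came nearest to it among the family leaders not called (1.94 ± 0.57, edgeR adjusted p = 0.0588). Ighv11-2, Ighv12-3 and Ighv15-2, each the sole member of its family, had 0.64, 2.79 and 2.25 (edgeR adjusted p = 0.780, 0.250 and 0.285).

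**Figure D2:**
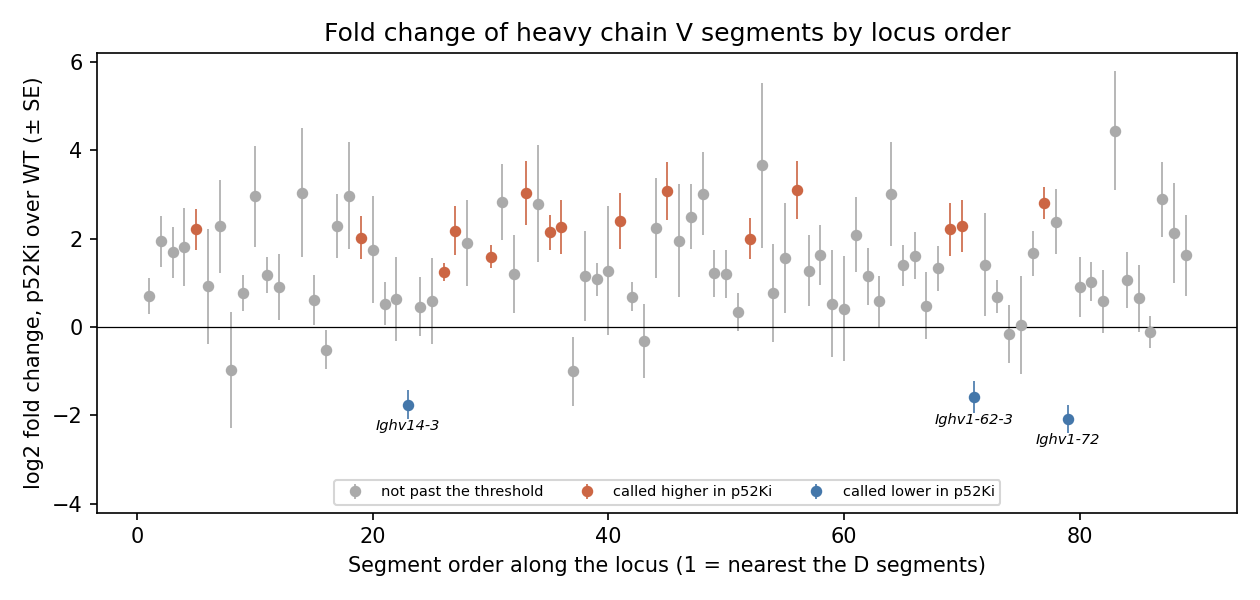
Log2 fold change (p52Ki over WT, ± SE) of 87 V segments in their order along the locus, without the 2 segments at 0 counts in all WT libraries. The 3 segments called lower (blue) lie between -2.08 and -1.59, 2 of them in the distal stretch, and the called rises (orange) are spread along the order.

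Summed over the 89 segments, V transcripts were more abundant in p52Ki. The sum was 1572, 1645, 1662 and 1668 CPM in WT and 2471, 2610, 2023, 2401 and 1936 CPM in p52Ki, without overlap (means 1637 ± 44.4 and 2288 ± 293 CPM, a ratio of 1.398). Without Ighv1-72 the sums were 987 ± 61.1 and 2135 ± 270 CPM, a ratio of 2.16. V counts per 100 heavy chain constant counts were 11.8 ± 0.262 in WT and 12.3 ± 0.605 in p52Ki and overlapped (SD, n = 4 and 5).

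The repertoire of the p52Ki libraries was spread over more segments. The effective number of segments, the exponential of the Shannon entropy and the number of equally used segments that would give the same entropy, was 17.1, 18.2, 15.3 and 19.3 in WT and 44.2, 48.9, 51.1, 46.4 and 57.7 in p52Ki. The inverse Simpson index, which weights the common segments more, was 5.76 ± 0.532 in WT and 33.6 ± 6.79 in p52Ki. Neither measure overlapped. The 3 most abundant segments held at least 50% of the Ighv counts in each WT library, where 11 to 16 were needed in p52Ki. The 10 most abundant held 66.9% to 74.7% in WT and 36.6% to 49.997% in p52Ki.

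The leading segment differed among the p52Ki libraries. It was Ighv5-4 at 9.45% in replicate 1, Ighv1-53 at 9.04% in replicate 2, Ighv1-26 at 9.23% in replicate 3, Ighv1-72 at 10.1% in replicate 4 and Ighv6-3 at 4.63% in replicate 5. Per base of transcript the leader of replicate 1 was Ighv1-9 and the other leaders were the same. By counts Ighv1-72 was second in replicates 2, 3 and 5 and ranked 9 in replicate 1.

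Detection followed the same order. Of the 89 segments, 75, 81, 78 and 83 had at least 1 count in WT and 86, 88, 87, 88 and 89 in p52Ki. At an equal depth of 8913 Ighv counts, the total of the smallest library, the expected number was 79.0 ± 3.34 in WT and 87.4 ± 1.32 in p52Ki, without overlap. With all 185 Ighv genes of the count table, an alternative added after seeing the data that does not use the filter, the difference was 17.0 segments in place of 8.38.

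Leaving Ighv1-72 out of every library, also added after seeing the data, moved much of the gap. The effective number was then 43.1, 35.1, 31.6 and 41.9 in WT and 43.3, 50.6, 53.0, 49.5 and 57.5 in p52Ki, so p52Ki replicate 1 was barely above WT replicate 1. The inverse Simpson index overlapped (22.8 ± 5.16 and 35.2 ± 6.62), as did the share of the 10 most abundant segments (52.2% ± 6.39 and 42.6% ± 5.56). The expected number of segments, at 6865 counts, was 78.2 ± 3.44 in WT and 86.3 ± 1.37 in p52Ki and did not overlap.

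**Figure D3:**
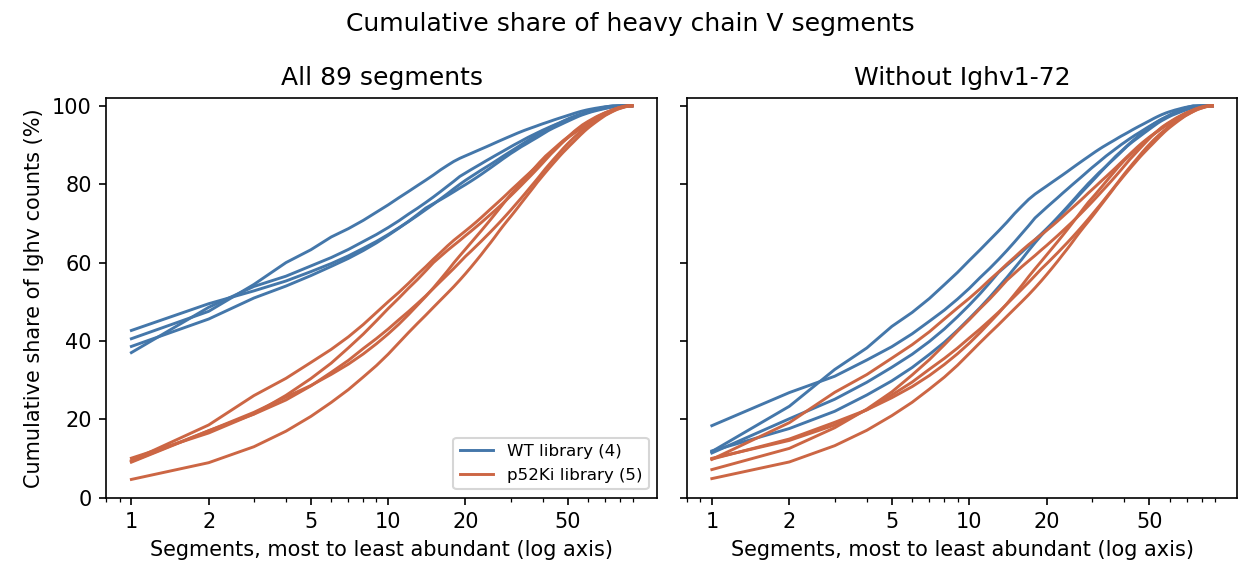
Cumulative share of Ighv counts (percent) against the number of segments, from the most abundant (log axis), 1 line per library, for all 89 segments and without Ighv1-72. With all segments the WT lines start at 37.0% to 42.7% and the p52Ki lines at 4.63% to 10.1%, and without Ighv1-72 the genotypes overlap at 10 segments.

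Repertoires were also compared pair by pair with the Bray-Curtis dissimilarity, which is 0 for identical shares and 1 for no segment in common. It was 0.195 to 0.256 (median 0.209) for the 6 pairs within WT, 0.261 to 0.354 (median 0.312) for the 10 pairs within p52Ki and 0.427 to 0.600 (median 0.507) for the 20 pairs between genotypes. Without Ighv1-72 the ranges were 0.291 to 0.378 within WT, 0.260 to 0.355 within p52Ki and 0.334 to 0.496 between. The WT libraries were thus more alike than the p52Ki libraries with Ighv1-72 counted, and similar in range to them without it.

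Family 1, which holds 46 of the 89 segments, was the largest family in every library. It took 69.8%, 61.2%, 63.8% and 68.8% of Ighv counts in WT and 41.6%, 55.7%, 53.0%, 53.2% and 49.8% in p52Ki, with every p52Ki library lower. Without Ighv1-72 the shares of family 1 were 43.5% ± 5.58 and 47.2% ± 4.502 and overlapped, with p52Ki now the higher mean. In CPM family 1 stood at 1078 ± 59.7 and 1158 ± 202 and overlapped too. A lower share of family 1 was therefore seen only with Ighv1-72 counted.

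Of the 15 families, 5 had a higher share in every p52Ki library than in any WT library. These were families 3 (1.44% ± 0.212 and 3.13% ± 0.671), 4 (0.358% ± 0.195 and 1.08% ± 0.478), 6 (1.82% ± 0.914 and 5.90% ± 1.56), 7 (0.806% ± 0.192 and 2.81% ± 1.69) and 9 (2.97% ± 0.416 and 5.10% ± 1.06). Since shares sum to the whole, a smaller share of Ighv1-72 leaves a larger summed share to the other segments, though not to each of them. Without Ighv1-72, family 6 alone was higher in every p52Ki library (2.99% ± 1.43 and 6.29% ± 1.47) and family 14 alone was lower (14.3% ± 3.34 and 5.35% ± 2.18). In CPM, 6 families did not overlap, all higher in p52Ki, the same 5 and family 13 (4.51 ± 3.16 and 37.1 ± 27.6 CPM). Of all single genes tested, 7.3% separated in CPM with p52Ki higher and 6.53% with p52Ki lower. The families are sums of the same filtered segments, so the limit of the filter holds for them too.

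Family 14 holds Ighv14-3. Its share was 9.64%, 5.90%, 9.19% and 9.52% in WT and 2.40%, 5.15%, 5.76%, 7.42% and 3.97% in p52Ki, and the genotypes overlapped, WT replicate 2 lying below p52Ki replicate 4. Family 5, the second in mean share, took 7.69%, 18.6%, 14.03% and 7.38% in WT and 18.8%, 10.7%, 12.9%, 18.8% and 10.9% in p52Ki and the SD within each genotype (5.40 and 4.10 points) exceeded the difference of the means. Its p52Ki mean was the higher by share and in CPM and the lower without Ighv1-72. Families 2, 8, 10 and 13 overlapped in share, and families 11, 12 and 15, with 1 segment each (Ighv11-2, Ighv12-3 and Ighv15-2), each had a library at 0 counts.

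**Figure D4:**
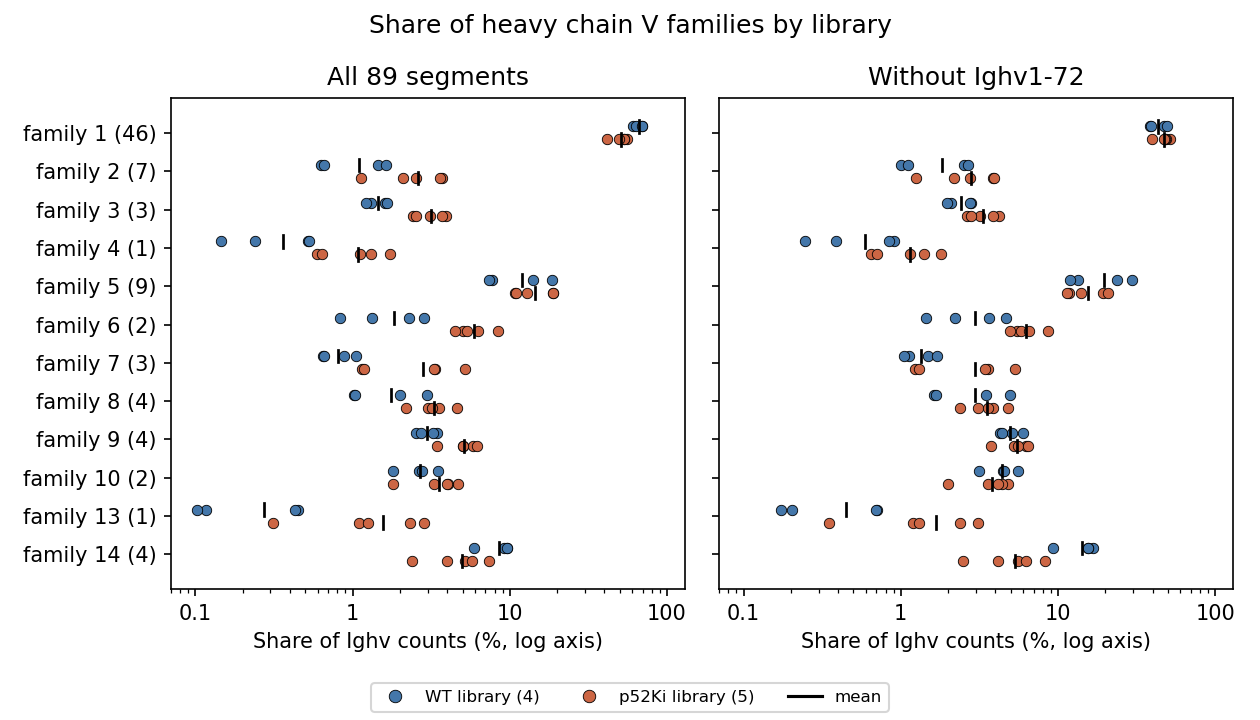
Share of Ighv counts (percent, log axis) of 12 V families in each WT (blue) and p52Ki (orange) library, with the mean as a line and the number of segments among the 89 in brackets, for all 89 segments and without Ighv1-72. Families 11, 12 and 15, with a library at 0 counts, are not drawn. Family 1 is lower in all p52Ki libraries at left and overlaps at right.

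The families are not evenly placed along the locus, where the segments nearest the D segments have the lowest coordinates. Ordered by position, the distal 29 of the 89 segments (115119748 to 116000461 on chromosome 12) held 60.3% ± 3.80 of Ighv counts in WT and 36.4% ± 7.02 in p52Ki, without overlap. Without Ighv1-72, which lies in this stretch, they held 34.2% ± 4.72 and 31.9% ± 5.98 and overlapped. The middle 30 (114299961 to 115068002) held 12.5% ± 1.48 and 30.2% ± 5.31, and 20.8% ± 1.81 and 32.3% ± 4.98 without Ighv1-72, with every p52Ki library higher both times. The proximal 30 (113578504 to 114288582) overlapped, at 27.2% ± 3.33 and 33.4% ± 3.67. Without Ighv1-72 the direction of the proximal means turned, to 45.1% ± 4.92 in WT and 35.8% ± 3.77 in p52Ki, still with overlap. Called rises numbered 7, 7 and 3 and called falls 1, 0 and 2 in the proximal, middle and distal stretches, where 4.49% and 4.04% of all genes were called higher and lower. The median log2 fold changes were 1.64, 1.598 and 1.33.

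Among 34 genes that rearrange, carry, mutate or transcribe the heavy chain, 32 were tested, and 5 rose and 6 fell, where 4.49% of all genes tested were called higher and 4.04% lower. Ighg1, the IgG1 constant gene, stood at 3362, 3283, 3546 and 2583 CPM in WT and at 88.4, 399.8, 894, 220.03 and 154 CPM in p52Ki (log2 fold change -3.18 ± 0.54, edgeR adjusted p = 0.00610). Ighm, of IgM, averaged 9666 ± 705 CPM in the WT libraries against 16733 ± 2172, a rise of 0.79 ± 0.11 in log2 (edgeR adjusted p = 0.00263), and Ighd, of IgD, rose by 1.47 ± 0.24 (edgeR adjusted p = 0.00462). p52Ki replicate 3, with the highest Ighv14-3 among the p52Ki libraries, also had the highest Ighg1, whereas replicate 4, with the highest Ighv1-72, did not. Ighg1 made up 24.7%, 24.0%, 25.7% and 18.1% of heavy chain constant counts in WT and 0.433%, 1.90%, 5.30%, 1.21% and 0.918% in p52Ki.

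The DNA repair genes Ung and Exo1 fell by 1.15 and 1.43 on the log2 scale (edgeR adjusted p = 0.0160 and 0.0180), calls that ended without WT replicate 1 (adjusted p = 0.0502) and without WT replicate 4 (adjusted p = 0.0553). Of the factors that act on V promoters and enhancers, Pou2f2 rose by 0.67 ± 0.17 and its coactivator Pou2af1 fell by 0.68 (edgeR adjusted p = 0.0345 and 0.0255). The call of Pou2f2 was kept only without p52Ki replicate 2, and that of Pou2af1 ended without replicate 1 or 4 of WT or 1 or 3 of p52Ki (adjusted p up to 0.0866 and 0.0881). Cd79a, of the pair of signalling chains of the receptor, rose by 0.85 ± 0.16 (edgeR adjusted p = 0.00906). Its partner Cd79b had 0.34 ± 0.12 and did not pass (edgeR adjusted p = 0.115). Rag2, of the recombinase, had 0 counts in WT and 194 over the p52Ki libraries (edgeR adjusted p = 0.0291). It stood, pooled over p52Ki, at 63.7-fold the floor of 3 WT counts used above, which allows for counting error in WT only. It was also at 0 in p52Ki replicate 4, so the genotypes overlapped, and its call ended without any 1 WT library (adjusted p up to 0.0569), while 4 of the fits without a p52Ki library did not test it. Rag1 had 18 and 202 counts and was short of the threshold (edgeR adjusted p = 0.157). Dntt, the polymerase that adds bases at the joints, had 0 counts in every library.

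Light chain values were looked at after the Ighv1-72 result was seen. Iglc1, the constant gene of the lambda chain named above, made up 48.5%, 45.6%, 52.8% and 55.2% of the light chain constant counts in WT and 20.2%, 21.7%, 19.4%, 19.4% and 16.3% in p52Ki. Igkc rose by 1.55 ± 0.15 in log2 (edgeR adjusted p = 0.000720), whereas the log2 fold changes of Iglc1 and Iglv1, -0.64 and -0.58, did not pass (edgeR adjusted p = 0.0783 and 0.0858).

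Each WT library had 7368604 to 7937579 counts and each p52Ki library 4492160 to 6647650, of which the 89 segments held 11686 to 12567 and 8913 to 17019. The 7 B cell markers summed to 10557 to 11676 CPM in WT and 11839 to 15434 CPM in p52Ki. The 7 germinal centre markers, present in libraries labelled as before that stage, summed to 2720 to 3476 and 722 to 1631 CPM. Of them 6 fell and 0 rose, where 4.04% of all genes tested were called lower and 4.49% higher. Plasma cells hold far more immunoglobulin RNA than other B cells. Their 8 markers summed to 1573 to 2057 and 868 to 1501 CPM, with Irf4 higher and Jchain lower in p52Ki. Most of the sum was Jchain (means 1252 and 562 CPM) and Xbp1 (373 and 315 CPM). Prdm1, Xbp1, Mzb1 and Derl3 had log2 fold changes of 0.14, -0.24, -0.08 and 0.67 and did not pass. Tnfrsf17 was at 0 in all libraries but p52Ki replicate 4 (0.306 CPM). Sdc1 was at 0, 4.84, 0 and 0 CPM in WT and 37.9, 21.5, 26.5, 17.6 and 6.74 CPM in p52Ki (edgeR adjusted p = 0.0762). The part of germinal centre and plasma cells in the V segment values was not tested. The 7 T cell markers summed to 188 to 256 and 76.9 to 201 CPM, nearly all of it Lck (187 to 248 and 76.9 to 184 CPM), the only one of them tested, while the others were each at most 4.73 CPM in any library, and the 7 myeloid markers to 30.1 to 79.2 and 63.3 to 142 CPM, with S100a8 and S100a9 at 0 throughout.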

How the data were processed

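RNA from 4 WT and 5 p52Ki spleen B cell samples was made into SMART-Seq v2 and Nextera XT libraries, per the labels' protocols, which carry no strand mark and no molecular identifiers. The submitters' processing notes name build GRCm38, Subread 1.6.2 with its featureCounts, HISAT2 2.1.0 and SAMtools 1.8. The authors deposited raw counts for 55536 genes and log2 CPM for 12849 genes. The deposited log2 values equalled edgeR's log CPM from TMM factors and a prior count of 2, to within 4.97e-14.

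Counts were tested in R 4.3.3 with edgeR 4.0.16 (filterByExpr defaults, about 1.50 CPM in 4 libraries, TMM, robust quasi-likelihood F test without covariates), with two-sided p-values adjusted by Benjamini-Hochberg over 12849 genes at a threshold of 0.05. The SE was taken as the size of the log2 fold change divided by the root of its F statistic. Sums, shares, diversity and dissimilarity are described without a test. Sequences and positions are from GENCODE M21, where all 89 identifiers were found. The members and lists were chosen with earlier results of these data known. Segments were named as the 10 largest by mean share, the leader of each family and library, up to 8 called rises and 8 called falls of largest fold, Ighv1-72, and the called genes of the heavy chain list, of which 2 are not reported here; Ighv5-6, Ighv6-6, Ighv1-61, Ighv8-2, Ighv1-66 and Ighv1-2 were named after their values were seen. From the heavy chain list Ighg2b, Ighg2c, Ighg3, Igha, Ighe and Cd79b, none of them called, were also named after their values were seen. Alternatives were other library sizes and filters, DESeq2 1.42.0, limma-voom 3.58.1, a replicate block, left-out libraries, left-out segments and other segment sets.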

Additional observations from a re-analysis of the deposited data

Results flagged for a closer look

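Among 92 groups of shares, diversity values and summed levels, 7 had 1 library far from the rest of its genotype, with a gap to the nearest library, as a part of the genotype's range, above Dixon's 95% value. Chance flags about 1 in 20 groups. The gap was 0.898 for Ighv14-3 in WT, where replicate 2 was low at 5.32% (median 6.91%), and 0.880 for its family 14 there, with replicate 2 at 5.90%. It was 0.802 for Ighv14-3 in p52Ki, where replicate 3 was high at 3.03% (median 1.16%). It was 0.749 for Ighv1-53 in p52Ki, with replicate 2 at 9.04% (median 2.37%), and 0.767 for Ighv1-26 in p52Ki, with replicate 3 at 9.23% (median 3.22%). It was 0.893 for both Ighv12-3 and family 12, of which it is the only member, with p52Ki replicate 5 at 1.65% (median 0.104%).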

How the results depend on the processing

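Ighv1-72 kept its direction and call in all 17 other fits (log2 fold change -2.58 to -1.90, adjusted p up to 0.0461). The number of segments called higher (17) was 35 with DESeq2, 10 with limma-voom and 9 to 15 without 1 library. It was 12 against the summed Ighv counts, where Ighv4-1, Ighv1-5, Ighv1-62-2, Ighv1-61 and Ighv6-6 lost their calls. The number called lower (3) was 2 to 3 without 1 library and 3 against the summed Ighv counts. For none of the other fits, the replicate block included, is the share of all genes called given here. With the replicate number as a block, 2 segments were called higher and 1 lower. The numbers are not known to pair samples: same-numbered libraries had correlations of -0.042 to -0.00898 between their deviations from the genotype means. The log2 fold change of Ighv5-17 was 0.088 without WT replicate 2 (-0.82 to 0.088 without 1 library), and that of Ighv1-53 was -0.29 without p52Ki replicate 2 (-0.29 to 0.96). Without Ighv1-72 the ratio of summed levels was 2.16 and the difference in effective number 12.8, or 13.97 with each library's own largest segment left out. The difference in segments with at least 10 counts, not brought to an equal depth, was 14.4. The difference in expected segments at equal depth was 17.0 with all 185 genes. Differences in family share, p52Ki minus WT in percentage points, turned without each library's largest segment and without Ighv1-72, to 5.62 and 3.72 in family 1, -5.90 and -4.16 in family 5, -0.55 and -0.64 in family 10 and -0.114 and -0.121 in family 11. Family 11 was also at -0.00884 with all 185 genes, -0.0543 without WT replicate 3 and -0.00874 without p52Ki replicate 3 (-0.0543 to 0.148 over the libraries left out). Shares sum to the whole by construction, and causes of these differences were not tested. A library held 8913 to 17019 Ighv counts, so a segment under about 1% had a 95% Wilson interval of up to ± 0.197 points.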
